A study of Mus musculus with 12 samples.

Results

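The genes described here are 6 long noncoding RNAs, Malat1, Neat1, Gas5, Snhg1, Snhg12 and Kcnq1ot1, chosen by symbol from the 51826 genes of the deposited tables. They were chosen by name, with earlier results of these data known but by no threshold on a value, and all 6 were found and passed the filter on low counts. The study measured polyadenylated RNA of mouse thymus in 12 libraries, read as 75-base paired ends after Trizol extraction. The 9 tumor libraries are T cell acute lymphoblastic leukemias (T-ALL) from mice whose IL-7Rα is expressed under tetracycline induction, titled as doxycycline-induced, and the 3 control libraries are thymus of healthy mice labelled with the genotype control. The labels give the strain F5 for both groups and give no age, no promoter that drives the transgene and no statement that each library is a separate animal, so the p-values below measure only how far these samples spread, which may be technical.

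Long noncoding RNAs are transcribed like messenger RNAs and act without being translated. Malat1 is retained in the nucleus, where it gathers at nuclear speckles, the stores of splicing factors. Neat1 is the scaffold of paraspeckles: its long form builds these nuclear bodies, while its short form shares the 5′ end and does not build them alone. Gas5, Snhg1 and Snhg12 are host genes of small nucleolar RNAs (snoRNAs), which guide chemical modification of ribosomal RNA and are cut from the introns of their hosts. The spliced exons that remain go to the cytoplasm and are degraded by nonsense-mediated decay in growing cells. Gas5 is known as a transcript that builds up when growth stops, and its first exon begins with a run of pyrimidines, as those of ribosomal protein messenger RNAs do. Kcnq1ot1 is a very long nuclear RNA made from the paternal chromosome only, antisense to Kcnq1, and silences neighbouring imprinted genes in cis.

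The start sites show how the snoRNA hosts begin, with 30 bases to each side of the start that RefSeq gives on GRCm38.p6. Capitals mark, on the gene's strand, any run of a C followed by at least 4 bases that are each C or T, searched on both strands within 10 bases of the start.
Malat1, chr19:5802643-5802702, minus strand: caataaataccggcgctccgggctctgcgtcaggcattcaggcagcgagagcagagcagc
Gas5, upstream start, chr1:161034571-161034630, plus strand: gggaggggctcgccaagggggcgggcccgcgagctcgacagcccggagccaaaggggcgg
Gas5, downstream start, chr1:161035136-161035195, plus strand: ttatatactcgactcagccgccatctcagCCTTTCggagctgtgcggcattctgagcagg
Snhg1, chr19:8723457-8723516, plus strand: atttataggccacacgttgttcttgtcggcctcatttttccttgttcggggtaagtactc
Snhg12, chr4:132308648-132308707, plus strand: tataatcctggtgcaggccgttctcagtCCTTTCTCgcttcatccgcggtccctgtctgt
Kcnq1ot1, chr7:143296518-143296577, minus strand: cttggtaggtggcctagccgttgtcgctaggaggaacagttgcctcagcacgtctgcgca
The downstream start of Gas5 and the start of Snhg12 held such a run on the gene's strand, 6 and 8 bases long. Within 10 bases of the start, Malat1, Snhg1 and the upstream Gas5 start held no such run on either strand. Kcnq1ot1 held a run there on the other strand only, which is not marked. Bases farther out were printed but not searched. Of 32851 start windows in the RefSeq table, searched in the same way, 25.5% held a run on the gene's strand and 28.3% on the other strand. The match is therefore a description of these letters and not of a site. The table was matched by symbol and held starts for 5 of the 6 genes, Neat1 being the gene without an entry.

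Malat1 spans chr19:5795690-5802672 on the minus strand of GRCm38 (GENCODE M21), and Neat1 lies beside it at chr19:5824708-5845478 on the same strand. Both were counted mostly on a single unspliced transcript, of 6983 bases (Malat1-201) and 20771 bases (Neat1-201), and each also has a spliced model that took part of the counts. The exon junctions of these 2 spliced models are shown with 30 bases to each side, read from the GENCODE M21 transcripts, with the 10 bases on each side of the junction in capitals.
Malat1-203: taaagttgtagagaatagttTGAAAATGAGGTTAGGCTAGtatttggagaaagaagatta
Neat1-202: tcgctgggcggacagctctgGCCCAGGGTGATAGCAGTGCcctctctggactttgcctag
Malat1-203 joins an exon of 434 bases (chr19:5802238-5802671) to an exon of 51 bases (chr19:5801916-5801966), removing 271 bases. Neat1-202 joins an exon of 552 bases (chr19:5844925-5845476) to an exon of 2452 bases (chr19:5842307-5844758), removing 166 bases. Both removed stretches begin with GT and end with AG in the unspliced transcript. Both exons of each model lie within the unspliced transcript, so only the sequence over the junction is particular to the spliced model. Reads elsewhere in its exons are divided between the models by estimate. How many reads crossed the junction is not known from these values.

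The libraries differed in composition, and this followed the groups in part. Mitochondrial genes took 31.6% to 69.3% of the estimated counts of tumors 1 to 6, at most 6.73% of those of a control and 2.54% to 11.1% of those of tumors 7 to 9. Gene models made of satellite-like repeats took 29.9% to 59.5% of counts in the controls and tumors 7 to 9 and 0.115% to 2.44% in tumors 1 to 6. Chemoreceptor genes of nose and vomeronasal organ, a class foreign to thymus, reached a median density of 11.97 to 21.15 counts per kilobase in the controls and tumors 7 to 9, against 0 to 3.54 in tumors 1 to 6. Library totals ran from 8133152 to 34769946 counts, and counts on nuclear protein-coding genes from 2414305 to 13320873. T cell markers were present in tumors 1 to 6, where the 12 markers summed to 3957 to 4599 per 1000000 nuclear protein-coding counts, against at most 1035 in a control and at most 1108 in tumors 7 to 9. No label separates tumors 1 to 6 from tumors 7 to 9; they are given apart below because of this composition, and state and composition cannot be told apart between tumors 1 to 6 and the controls. In bulk samples, fewer cells of a type and less RNA per cell cannot be told apart either.

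Levels are given as counts per 1000000 nuclear protein-coding counts, a scale that leaves out mitochondrial and satellite-like counts but still holds the background in its denominator. Each member's density, its counts per kilobase, is also set against the receptor genes' median density in the same library, where a value of 1 is the level of those genes. Tumors and controls were compared on this scale with an exact permutation test, two-sided, on log2(level + 1), over the 220 ways to choose 3 of 12 libraries, whose smallest possible p is 0.00455.

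Malat1 was the most abundant of the 6 in tumors 1 to 6. It was the only member whose level had an unadjusted exact permutation p under 0.05 over all 12 libraries. Its level was 1538, 75.81 and 60.29 in controls 1 to 3. In tumors 1 to 6 the lowest was 5756, the median 20040 and the highest 27380, and tumors 7 to 9 had 3196, 2320 and 313. Thus 8 of 9 tumors lay above the highest control, and tumor 9 lay between control 1 and the other controls. The difference was 5.17 on the log2 scale (two-sided exact permutation p = 0.00909), where the mean level was 12750 ± 10630 in tumors (SD, n = 9) and 558.2 ± 849.0 in controls (SD, n = 3). It was 6.66 without control 1 (exact permutation p = 0.0182). Control 1 was also the control with the most mitochondrial counts, 6.73% against 0.181% and 0.0948%, and the part of that in the Malat1 level was not tested. In control 1 Malat1 stood at 41.3 times the receptor median, in controls 2 and 3 at 1.83 and 1.41 times, and in tumors 7 to 9 at 92.3, 79.2 and 7.40 times. In controls 2 and 3 it therefore lay above 76.7% and 69.2% of receptor genes, a position that many receptor genes shared.

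**Figure D1:**
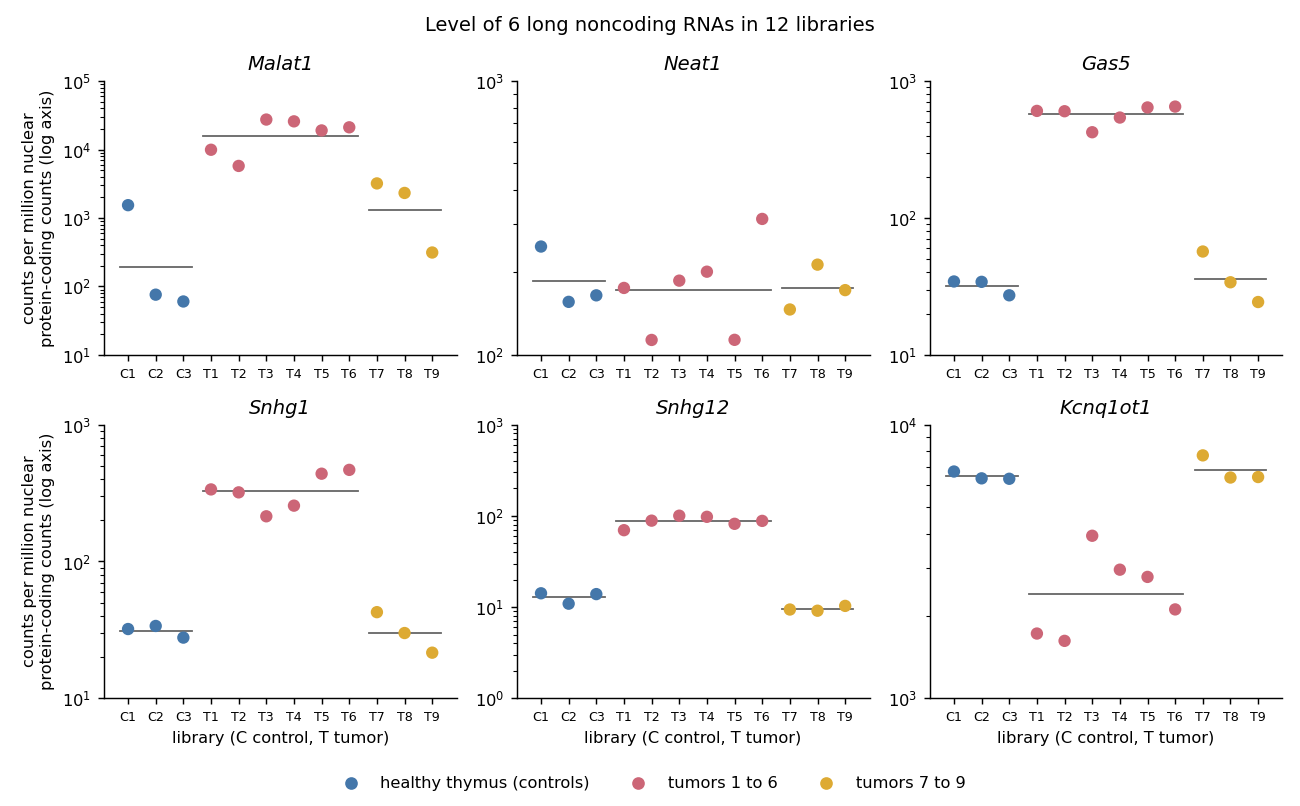
Level of each of the 6 genes in counts per 1000000 nuclear protein-coding counts (log axes) in each library, with controls in blue, tumors 1 to 6 in red, tumors 7 to 9 in yellow and the geometric mean of each set as a line. Malat1, Gas5, Snhg1 and Snhg12 are higher in each of tumors 1 to 6 than in any control, Kcnq1ot1 is lower there, and Neat1 overlaps between the sets.

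Neat1 did not separate the groups on the coding scale, although it lies next to Malat1 on the chromosome. Its level was 248.7, 156.2 and 165 in the controls, 113.4 (lowest), 181.2 (median) and 313.7 (highest) in tumors 1 to 6, and 146.5, 213.6 and 172.4 in tumors 7 to 9. The 3 sets overlapped, and the difference was -0.10 on the log2 scale (two-sided exact permutation p = 0.736), against 1.26 on counts scaled by edgeR's trimmed mean of M-values, TMM (exact permutation p = 0.0727). Its density stood at 1.27 to 2.24 times the receptor median for controls, and at 1.37 to 2.45 times for tumors 7 to 9, so in those libraries Neat1 stood close to the receptor genes. In the 5 of tumors 1 to 6 whose receptor median was above 0, Neat1 stood at 5.83 to 323 times that median.

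Gas5 was among the steadiest genes of tumors 1 to 6 and was near the receptor genes in every other library. Its level was 34.37, 34.16 and 27.24 in the controls. In tumors 1 to 6 the lowest was 422.8, the median 603.6 and the highest 650.7, and tumors 7 to 9 had 56.89, 33.92 and 24.33. All of tumors 1 to 6 lay above the controls, while tumors 7 to 9 fell on both sides of them. The mean was 397.6 ± 277.8 in tumors (SD, n = 9) and 31.93 ± 4.06 in controls (SD, n = 3). The difference of 2.81 on the log2 scale did not pass the test over all 12 libraries (two-sided exact permutation p = 0.0636) and was 4.13 without tumors 7 to 9 (exact permutation p = 0.0119, the smallest that those 9 libraries allow). Its density was 1.19 to 1.71 times the receptor median in the controls, 1.07 to 3.05 times in tumors 7 to 9 and 166 to 3702 times in tumors 1 to 6.

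Snhg1, the host of snoRNAs on the chromosome of Malat1 and Neat1, followed the same layout at a lower level. It had 32.1, 33.8 and 27.79 in the controls, 213.7 (lowest), 327.7 (median) and 466.5 (highest) in tumors 1 to 6, and 42.63, 30.01 and 21.57 in tumors 7 to 9. The difference over all libraries was 2.22 on the log2 scale (two-sided exact permutation p = 0.105) and 3.35 without tumors 7 to 9 (exact permutation p = 0.0119). In the controls its density was 1.53 to 2.03 times the receptor median.

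Snhg12, the lowest of the 3 hosts, had 14.17, 10.9 and 13.88 in the controls and 9.408, 9.129 and 10.31 in tumors 7 to 9. In tumors 1 to 6 it had 69.59 (lowest), 88.25 (median) and 100.3 (highest). All of tumors 1 to 6 lay above the controls, and all of tumors 7 to 9 lay below them. The difference was 1.65 on the log2 scale (two-sided exact permutation p = 0.182) and 2.66 without tumors 7 to 9 (exact permutation p = 0.0119). Its density in the controls was 1.21 to 1.75 times the receptor median.

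Kcnq1ot1 (chr7:143203458-143296549 in GENCODE M21, minus strand, where it overlaps Kcnq1 on the other strand) was, on the coding scale, the only member lower in every one of tumors 1 to 6 than in every control, while on TMM-scaled counts its difference over all libraries was 0.46 (exact permutation p = 0.227). The files hold it as 1 transcript of 84395 bases, so it gathers many counts at a low density. Its level was 6736, 6360 and 6337 in the controls and 7715, 6404 and 6431 in tumors 7 to 9. In tumors 1 to 6 it was 1622 (lowest), 2445 (median) and 3925 (highest), below every other library. The difference over all libraries was -0.93 on the log2 scale (two-sided exact permutation p = 0.127) and -1.43 without tumors 7 to 9 (exact permutation p = 0.0119). In the controls and tumors 7 to 9 its density stood at 12.3 to 18.4 times the receptor median, above 96.1% to 96.7% of receptor genes, whose 95th percentile was 9.33 to 13.6 times their median there. In the 5 of tumors 1 to 6 whose receptor median was above 0, Kcnq1ot1 stood at 20.5 to 535.6 times that median. Strand was not stated for the counting, so reads of Kcnq1ot1 and of Kcnq1 introns cannot be told apart in it.

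**Figure D2:**
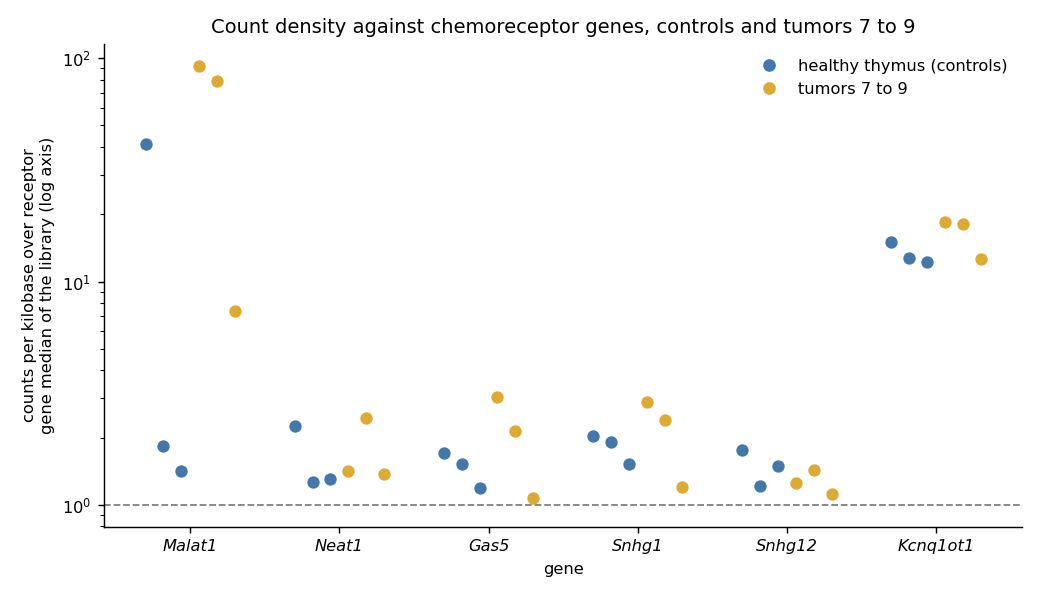
Counts per kilobase of each gene over the median counts per kilobase of olfactory and vomeronasal receptor genes in the same library (log axis), in controls 1 to 3 (blue) and tumors 7 to 9 (yellow), with a dashed line at 1. Neat1, Gas5, Snhg1 and Snhg12 lie between 1.07 and 3.05, Kcnq1ot1 between 12.3 and 18.4, and Malat1 ranges from 1.41 to 92.3.

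In the edgeR fit of all 9 tumors against 3 controls (quasi-likelihood F test with TMM-scaled library sizes, 40521 genes, adjusted p under 0.05), 0 of the 6 members were called. Over all genes tested that fit called 0.0% higher and 0.00494% lower. At an unadjusted p under 0.05 there were 5 of the 6 members, beside 18.0% of all genes. DESeq2 called 4 members higher, namely Malat1, Gas5, Snhg1 and Snhg12, beside 9.97% of all genes higher and 0.126% lower. The linear model of limma on log2(TPM + 1), where TPM is the deposited length-corrected transcripts-per-million value, called Malat1 higher and Kcnq1ot1 lower, beside 0.323% of all genes higher and 79.3% lower. The fold changes on the log2 scale were 6.49 ± 2.51 (SE) for Malat1, 5.61 ± 1.59 for Gas5 and 4.87 ± 1.43 for Snhg1. They were 4.21 ± 1.27 for Snhg12, 1.56 ± 0.74 for Neat1 and 0.58 ± 0.90 for Kcnq1ot1, with edgeR adjusted p between 0.129 and 0.719 over the 6. For every edgeR fit here, the SE is an approximation, the absolute fold change divided by the square root of its F statistic. For limma it is the SE of the model.

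With tumors 1 to 6 alone set against the controls, the snoRNA hosts, Malat1 and Neat1 were called higher in the tumors. In this fit 5 of 6 members were called higher and 0 lower, beside 19.6% higher and 20.3% lower over all 38567 genes tested. Gas5 rose by 5.91 ± 0.49 (log2, SE, edgeR adjusted p = 1.85e-05), Snhg1 by 5.20 ± 0.53 (adjusted p = 2.06e-05) and Snhg12 by 4.48 ± 0.39 (adjusted p = 1.99e-05). Malat1 rose by 6.83 ± 1.66 (adjusted p = 0.00596) and Neat1 by 1.69 ± 0.43 (adjusted p = 0.00779), while Kcnq1ot1 had 0.41 ± 0.56 (adjusted p = 0.529).

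The scaling set the direction of Neat1 and Kcnq1ot1. With nuclear protein-coding counts as the library size, the median log2 fold change of all genes moved from -1.29 to -2.85, and 9.29% of genes were called higher and 64.8% lower. On this scale 4 members were higher, with Malat1 at 5.02 ± 1.35 (edgeR adjusted p = 0.00884), Gas5 at 4.18 ± 0.30, Snhg1 at 3.43 ± 0.34 and Snhg12 at 2.75 ± 0.26. Neat1 stood at -0.05 ± 0.34 (adjusted p = 0.907), and Kcnq1ot1 was lower at -1.36 ± 0.42 (adjusted p = 0.0152). Malat1 and the 3 hosts kept a positive fold change under every scaling tried in this contrast of all tumors or of tumors 1 to 6 against controls, but its size depended on the scaling. In limma on log2(TPM + 1) over all 12 libraries, Malat1 had 4.02 ± 1.44 (adjusted p = 0.0117) and Gas5 1.58 ± 0.99 (adjusted p = 0.14). Snhg1 had 0.82 ± 0.91 (limma adjusted p = 0.405) and Snhg12 0.82 ± 0.75 (adjusted p = 0.312).

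**Figure D3:**
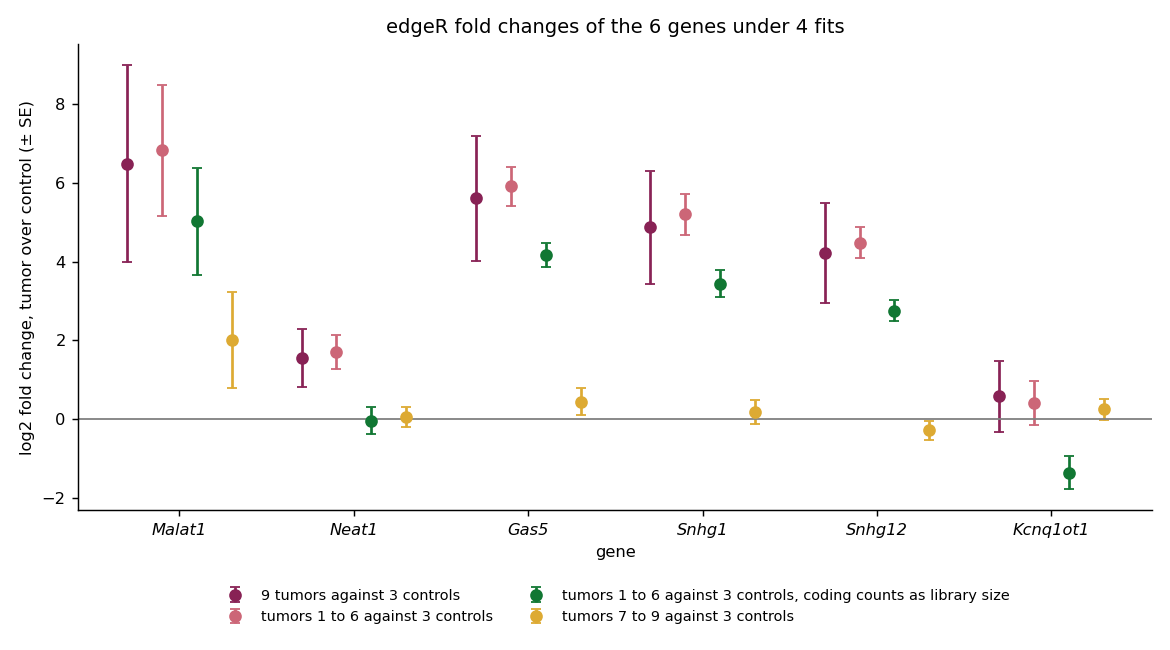
Fold changes of the 6 genes (log2, tumor over control, points with bars of the SE derived from the F statistic) in 4 edgeR fits that differ in the tumors used and in the library size. Malat1, Gas5, Snhg1 and Snhg12 lie between 2.75 and 6.83 in the 3 fits with tumors 1 to 6 and between -0.29 and 2.00 in the fit of tumors 7 to 9, and Kcnq1ot1 changes sign with the library size.

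Within the composition that holds controls, tumors 7 to 9 showed no called member. The edgeR fit of tumors 7 to 9 against the 3 controls called 0.0247% of 36449 genes higher and 0.0247% lower, and 0 of 6 members. None of the 6 had an unadjusted p under 0.05, beside 9.04% of all genes, and DESeq2 called 0 of them, beside 0.809% of all genes higher and 0.209% lower. Malat1 had the largest value of the 6, 2.00 ± 1.22 (log2, SE, edgeR adjusted p = 0.672), and 5.10 without control 1. Gas5 had 0.45 ± 0.35, Snhg1 0.18 ± 0.30 and Snhg12 -0.29 ± 0.25, with adjusted p from 0.754 to 0.902. Neat1 had 0.05 ± 0.25 and Kcnq1ot1 0.25 ± 0.26, with adjusted p of 0.971 and 0.822. A value that misses the threshold over 6 libraries does not show that the levels were alike.

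Malat1 was counted on a spliced and an unspliced model in all 12 libraries. In tumors 1 to 6 the spliced Malat1-203 (485 bases) took 14.5% to 37.5% of Malat1 counts and the unspliced Malat1-201 61.5% to 85.4%. Malat1-203 also took 32.8%, 13.1% and 5.43% in controls 1 to 3 and 36.5%, 2.52% and 13.1% in tumors 7 to 9, so its share overlapped between the sets. Its counts ran from 3696 to 94779 in tumors 1 to 6. Because it is short, it took 84.6% of Malat1 TPM on average there, against 22.6% of counts. The share is a kallisto estimate that rests on shared sequence, and the sequence of the junction above is the only part not also in Malat1-201.

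Neat1 differed in which model was counted, although its level did not separate. The 3004-base spliced Neat1-202, a short form, had counts in each of tumors 1 to 6 and was listed at 0 in each control and in tumors 7 to 9. It had 149.9, 58.4, 308.1, 183.3, 99.8 and 862.2 counts in tumors 1 to 6, which was 23.4%, 17.1%, 35.8%, 26.6%, 6.60% and 38.9% of Neat1. In the other 6 libraries Neat1-201 took 100% of Neat1 counts, between 353.6 and 906.6. The libraries where it took all counts were those where Neat1 stood close to the receptor median, and the part of the background in this estimate was not tested. Tumor 6 had both the highest Neat1 level, 313.7, and the highest Neat1-202 share.

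By estimated counts, Gas5 and Snhg1 fell mainly on models that retain introns, whereas none of the 7 Snhg12 models is annotated so. Of the 25 Gas5 models 20 are annotated as retaining an intron, and of the 18 Snhg1 models 14 are. For Gas5 they took 81.8% to 88.3% of counts in the controls. Their share was 65.0% to 87.0% for tumors 1 to 6 and 75.8% to 85.3% for tumors 7 to 9, so the sets overlapped. The tumor mean was 76.7% ± 7.31 (SD, n = 9) and the control mean 84.7% ± 3.26 (SD, n = 3), a difference of -8.04 percentage points (two-sided exact permutation p = 0.109). For Snhg1 the shares were 93.0%, 70.9% and 78.7% in controls 1 to 3, 61.7% to 92.7% for tumors 1 to 6, and 100%, 93.0% and 100% in tumors 7 to 9. Controls and tumors 1 to 6 overlapped, while tumors 7 to 9 lay above both, narrowly so for tumor 8 (93.04% against 92.96% in control 1). The difference of all tumors from controls was 5.38 percentage points (two-sided exact permutation p = 0.555). The remaining Gas5 models, which include the spliced forms, summed to 84.6 to 212 per 1000000 coding counts in tumors 1 to 6 and 4.01 to 5.46 in the controls. Those of Snhg1 summed to 31.8 to 129 and 2.26 to 9.82. As shares of TPM, the intron-retaining models of Gas5 took 44.7% to 69.1% in tumors 1 to 6 and 62.7% to 70.5% in the controls. Those of Snhg1 took 38.1% to 89.3% and 41.7% to 83.8% of TPM. In the controls and tumors 7 to 9 all these shares rest on few counts, 75 to 137 for Gas5 and 75 to 117 for Snhg1.

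**Figure D4:**
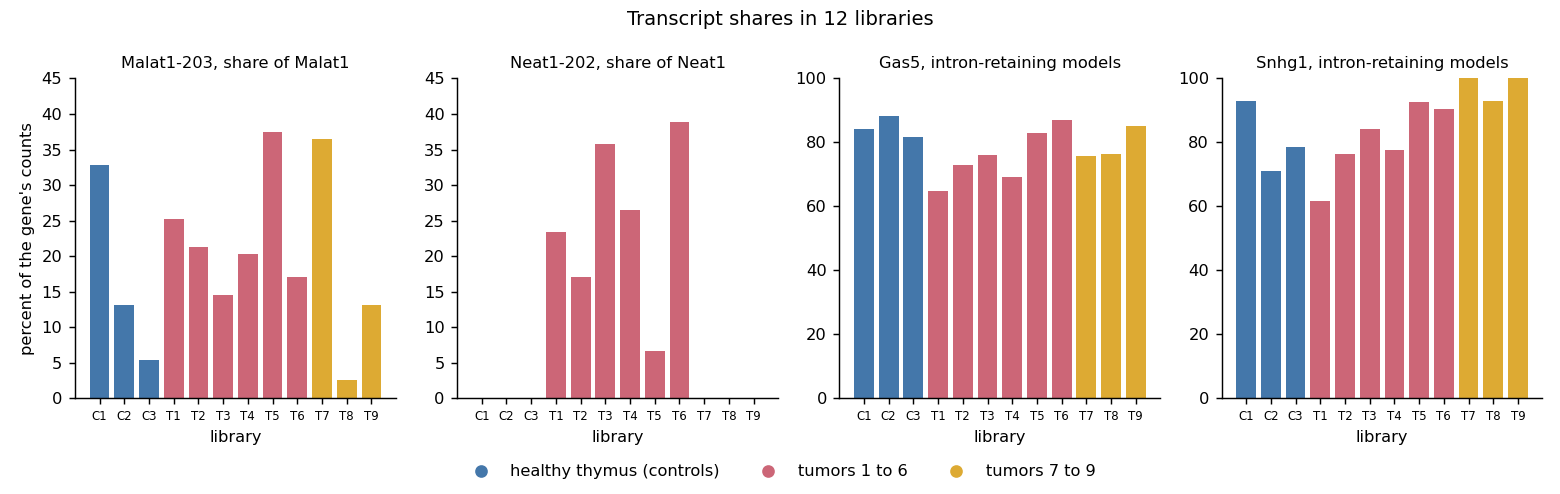
Share of a gene's estimated counts by library, for Malat1-203, for Neat1-202 and for the intron-retaining models of Gas5 and Snhg1 (percent; controls blue, tumors 1 to 6 red, tumors 7 to 9 yellow). Neat1-202 takes 6.60% to 38.9% in tumors 1 to 6 and has no bar in the other 6 libraries, the shares of Malat1-203 and of Gas5 overlap between the sets, and those of Snhg1 lie above all others in tumors 7 to 9.

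The snoRNAs themselves were hardly counted, in libraries made from polyadenylated RNA. GENCODE M21 places 10 snoRNA gene models within Gas5, 8 within Snhg1 and 5 within Snhg12 on the host's strand, and none within Malat1, Neat1 or Kcnq1ot1. Summed over its models, Gas5 had at most 20.7 such counts in any library, and Snhg12 at most 58.4. Snord22, inside Snhg1, was the model with the most counts and is shown for that reason, which was chosen after its values were seen. Its sequence is from GENCODE M21 (chr19:8725866-8725991, plus strand), with the last of its 2 CTGA matches, the letters of a D box, in capitals. TGATGA, letters of a C box, was found 0 times in it.
Snord22: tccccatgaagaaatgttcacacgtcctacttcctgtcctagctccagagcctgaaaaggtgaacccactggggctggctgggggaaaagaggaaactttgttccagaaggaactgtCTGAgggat
Snord22 had 31.2, 16.1, 184.5, 21, 177.8 and 183.2 counts in tumors 1 to 6, and 9.3, 46.9 and 1.0 in tumors 7 to 9. It had 8.9 counts in control 1 and was listed at 0 in controls 2 and 3. The intron-retaining models of Snhg1 hold the same bases, so kallisto could divide these reads between the snoRNA and its host.

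Within tumors 1 to 6 the members differed in how steady they were. The SD of the log2 level was 0.19 for Snhg12 and 0.23 for Gas5, and 3.92% and 8.14% of 8700 nuclear genes with a mean of at least 20 per 1000000 coding counts had a smaller SD. Snhg1 (0.43), Kcnq1ot1 (0.49) and Neat1 (0.55) lay near the median of those genes, 0.47. Malat1 had the widest range of the 6, with an SD of 0.89, larger than that of 83.3% of genes, and a highest level 4.76 times its lowest. By counts Malat1 ranked 1 to 3 among 8611 long noncoding genes in each of tumors 1 to 6, Kcnq1ot1 4 to 12, Gas5 10 to 19, Snhg1 12 to 33, Neat1 18 to 97 and Snhg12 63 to 188. Per length, by TPM beside nuclear protein-coding genes, the order changed: Malat1 ranked 1 to 8, Gas5 54 to 77, Snhg1 121 to 423 and Snhg12 340 to 605, while Kcnq1ot1 ranked 2957 to 5794 and Neat1 2525 to 7459. These ranks rest on the annotated transcript lengths, which is why the 84395-base Kcnq1ot1 fell far down the order. The per-length rank of Malat1 rests mostly on the 485-base Malat1-203, which held 78.1% to 91.0% of Malat1 TPM in these tumors. That share is an uncertain kallisto estimate.

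Gas5 and Snhg1 moved together over tumors 1 to 6. Both were lowest in tumor 3 and highest in tumor 6, with tumors 4, 2, 1 and 5 between them in the same order. Of the 15 pairs of members compared, this was the only pair past the threshold, with Pearson r = 0.913 (exact permutation p = 0.00139, adjusted 0.0208) and Spearman rho = 1.0 (exact permutation p = 0.00278, adjusted 0.0417) over 6 libraries. Without the 2 libraries farthest from the median, r was 0.999. On TMM-scaled counts per 1000000 (CPM) r was 0.943 with an adjusted exact permutation p of 0.151. Malat1 and Kcnq1ot1 had r = 0.866 and rho = 0.943, which did not pass after adjustment (exact permutation p = 0.0181, adjusted 0.135, for r). All these points share a denominator with each other, the nuclear protein-coding counts of the library.

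**Figure D5:**
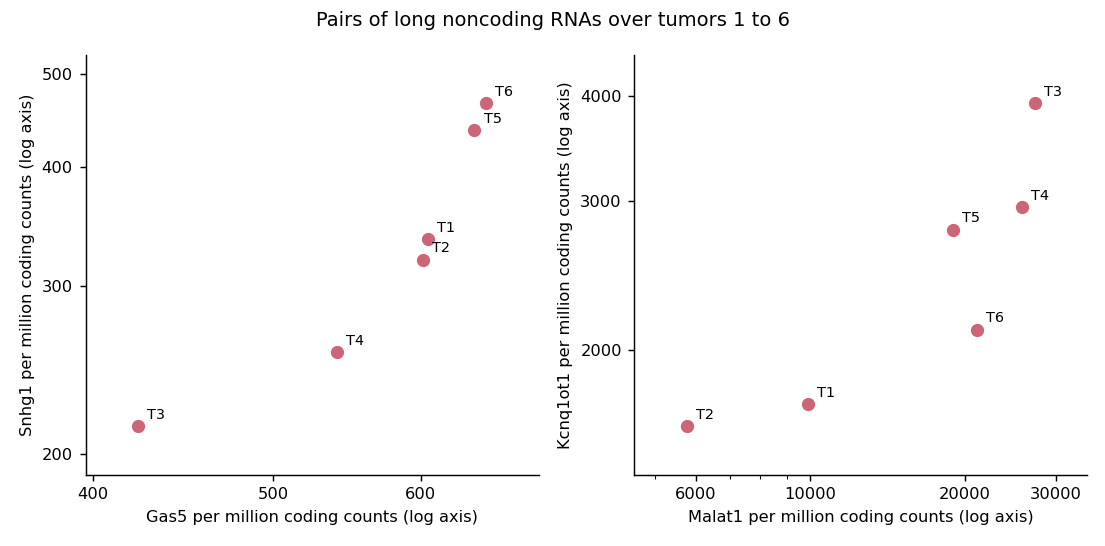
Levels of Snhg1 against Gas5 (left) and of Kcnq1ot1 against Malat1 (right) in tumors 1 to 6, in counts per 1000000 nuclear protein-coding counts (log axes), each point a library. Gas5 and Snhg1 keep the same order from tumor 3 to tumor 6 (rho = 1.0), and Malat1 and Kcnq1ot1 share their lowest library, tumor 2, and their highest, tumor 3.

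The genes whose levels over tumors 1 to 6 were most like each member were taken from the 8700 nuclear genes above, by Pearson r of log2 levels over 6 libraries, as a description. Malat1 was most like C230085N15Rik (r = 0.997), Fbxl17 (0.986) and Stim1 (0.984). Neat1 was most like Trac, the constant segment of the T cell receptor alpha chain (0.992), Zswim6 (0.981) and Ptk7 (0.978). Gas5 was most like Aldh2 (0.994), Ap2m1 (0.986) and Ubald2 (0.985), and Snhg1 most like Sap30 (0.995), Bcas2 (0.987) and Cpeb4 (0.979). Snhg12 was most like Bptf (0.983), Mdc1 (0.980) and Zbtb21 (0.978), and Kcnq1ot1 most like Dnm2 (0.996), Gm43910 (0.992) and Gm37033 (0.988). With 6 libraries such values are common: 14 to 49 genes had r above 0.95 with each member.

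Other genes of the same pathways were read from the same fits, by lists drawn up by function. With all 12 libraries edgeR called 0 of 175 list gene entries tested, with 111 at an unadjusted p under 0.05. DESeq2 called 94 of them higher and 0 lower, with 21 given no adjusted p, beside the 9.97% and 0.126% of all genes. In contrast, limma on log2(TPM + 1), which keeps the deposited scaling, called 0 higher and 55 lower, beside the 0.323% and 79.3% of all genes. The counts that follow are from the fit of tumors 1 to 6 against controls, with the count on coding library sizes second, and are to be read beside the 19.6% higher and 20.3% lower, and the 9.29% higher and 64.8% lower, of all genes.

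Among the other snoRNA hosts 12 of 16 gene entries were called higher and 1 lower, and 6 and 2 on coding library sizes. Dancr holds 2 of these entries, which differed, at 3.03 (edgeR adjusted p = 0.00644) and 0.21 (adjusted p = 0.804). The list was not uniform: Snhg14, the host of brain-type snoRNAs in the Prader-Willi region, fell by 2.10 on the log2 scale (SE 0.40, edgeR adjusted p = 0.00118), and Snhg11 had -0.93 ± 0.36 (adjusted p = 0.0555). Among other nuclear long noncoding RNAs 6 of 16 were higher and 4 lower, and 2 and 8 on coding library sizes. Tug1 was higher on both scales, at 3.89 ± 0.43 and 2.14 ± 0.27, while Dleu2 had 1.86 ± 0.45 and 0.08 ± 0.32.

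Proteins of the bodies that Malat1 and Neat1 belong to were higher in tumors 1 to 6. All 15 paraspeckle proteins were called higher, and 14 on coding library sizes, with Sfpq, a core paraspeckle protein, at 4.89 ± 0.56 and 3.12 ± 0.34 (log2, SE). All 15 nuclear speckle proteins were called higher on both, with Srrm2 at 5.93 ± 0.71 and 4.19 ± 0.52 and Son, the other speckle scaffold, at 5.19 ± 0.61 and 3.42 ± 0.39. The median log2 fold changes of these lists were 4.36 and 4.33, beside -1.29 for all genes tested, whatever their level. Lists of other functions had high medians too, 4.09 for the translation genes below and 3.53 for the T cell markers. For controls, Son stood at 1.31 to 1.74 times the receptor median, Srrm2 at 1.31 to 1.98 and Sfpq at 2.52 to 4.32. Son and Srrm2 thus lay near the background there. Neat1 itself stood at 1.69 and -0.05 in these 2 fits.

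Of the proteins that bind snoRNAs or help to assemble their particles, 13 of 15 were called higher on both scales and 0 and 2 lower. Nop56 stood at 4.83 ± 0.55 and Nop58 at 2.69 ± 0.40. Of the factors of nonsense-mediated decay, which degrade the spliced hosts, 10 of 12 were higher and 0 lower, and 7 and 2 on coding library sizes, with Smg1 at 4.17 ± 0.56 and Upf2 at 4.57 ± 0.40. All 23 translation genes that begin with a pyrimidine run were higher on both scales, with Eef1a1 at 5.33 ± 0.92 and Tpt1 at 5.35 ± 0.72. Eef1a1 and Tpt1 have many near-identical pseudogenes among which reads can be divided, so their values are uncertain. For controls, Smg1 and Upf2 stood at 1.12 to 1.64 times the receptor median, near the background. Nop56 and Nop58 stood at 1.61 to 2.99 times that median there.

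The called neighbours of the members were all higher with TMM scaling and went both ways on coding library sizes. In the Kcnq1 imprinted domain 4 of 12 were higher and 0 lower, and 2 and 6 on coding library sizes, with Nap1l4 at 4.27 ± 0.46 and Cd81 at 3.20 ± 0.41. Kcnq1 itself had a log2 fold change of -0.87 in the fit of tumors 1 to 6 (edgeR adjusted p = 0.446) and stood at 1.16 to 1.495 times the receptor median in the controls. Of 8 genes beside Malat1 and Neat1, 4 were higher and 0 lower, and 1 and 3 on coding library sizes, with Pola2 at 2.72 ± 0.38 and Dpf2 at 1.99 ± 0.38.

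Markers of the cell types that thymus holds were read beside the members. Of the 12 T cell markers 11 were called higher and 0 lower in tumors 1 to 6, and 6 and 0 on coding library sizes. B cell markers summed to 185.1 to 188.6 per 1000000 coding counts for controls, 132.6 to 159.4 for tumors 7 to 9 and 2.60 to 35.1 for tumors 1 to 6, with 1 of 5 called lower (4 on coding library sizes) and Cd79b listed at 0 in at least 1 of tumors 1 to 6. Thymic epithelial markers summed to 216.2 to 267.1, 220.9 to 249.8 and 59.9 to 96.0 in the same order, with 1 of 6 called higher and 2 lower (0 and 4 on coding library sizes), and Krt5 and Krt8 at 0 in at least 1 of tumors 1 to 6. Erythroid markers summed to 29.0 to 99.1, 18.1 to 24.4 and 4.41 to 20.9, with 0 of 4 called (3 lower on coding library sizes) and Hba-a1 and Hbb-bs at 0 in at least 1 of tumors 1 to 6.

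Macrophage markers summed to 90.1 to 101.9, 73.9 to 95.9 and 31.3 to 396.9, with 1 of 6 called higher and 0 lower (1 and 1 on coding library sizes), and fibroblast markers to 301.5 to 325.6, 376.3 to 389.8 and 36.7 to 429.5, with 1 of 5 higher and 1 lower (0 and 3 on coding library sizes). Endothelial markers summed to 251 to 611.2, 669.4 to 1045 and 395 to 2170, of which Pecam1, a gene that leukocytes also express, made up most in tumors 1 to 6 (388.5 to 2168). Of these 4, 1 was called higher and 1 lower (1 and 3 on coding library sizes). The part of these cells in the members' levels was not tested.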

How the data were processed

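For 12 libraries the authors deposited kallisto estimated counts and transcripts-per-million (TPM) values for 128622 transcripts, with lengths and effective lengths in bases, per the file headers. kallisto, FastQC and the build mm10 are named by the submitters' processing notes; versions and index are not stated there. kallisto divides reads shared by transcripts of a locus, so single transcript values are uncertain. Estimated counts were summed by gene and rounded. Of 51826 genes, 51633 matched GENCODE M21 by identifier. A model was called satellite-like where at least 50% of its 12-base words occur in Gm10800 (13 models). The level is the count per 1000000 counts on 21768 nuclear protein-coding genes outside those models. The receptor median is over 1379 genes.

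Tests used edgeR 4.0.16 in R 4.3.3 (TMM factors, filterByExpr, Benjamini-Hochberg over all genes tested), with limma 3.58.1 on log2(TPM + 1) or log2(TPM + 0.1) and DESeq2 1.42.0 as alternatives, and exact permutation tests in Python 3.11.15. The scripts were tested on simulated data. Groups and replicate numbers come from the labels. The members and lists were chosen with earlier results of these data known. The rule for named genes took all 6 members, from each list up to 4 genes past the threshold with all 12 libraries or, failing that, the 2 of highest mean CPM, and the 3 most alike genes of each member; genes named outside it were chosen after their values were seen. Values of a few list genes that the rule or the marker lists hold are not reported here.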

Additional observations from a re-analysis of the deposited data

Results flagged for a closer look

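Of 20 sets of tumor values examined for a library that stands apart, 1 was found: the Neat1 level of tumor 6, at 313.7 per 1000000 nuclear protein-coding counts over the 9 tumors. Its gap to the next tumor was 0.5 of the whole range. Chance alone marks about 1 in 20 such sets. The same library had the highest Neat1-202 share, 38.9%, and the fewest mitochondrial counts of tumors 1 to 6, 31.6%; whether these belong together was not tested.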

How the results depend on the processing

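The results below were recomputed with other scalings, filters, tools and sets of libraries. Of 431 recomputed values 327 were labelled the same. For a tested value this means the same direction and the same side of the threshold. Counts and SDs had to stay within 1.5 times, transcript shares within their SD, and correlations with a library left out had to keep their sign. Of the rest, 1 lost its call, 36 gained a call, 27 changed sign and 40 moved by more than the spread or by over 1.5 times. Leaving out tumors 7 to 9 (with the library-size fits of those libraries), keeping satellite-like models and the fit of numbered libraries with no block were chosen after seeing the data.

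With all 12 libraries edgeR called 0 genes higher and 2 lower. DESeq2 called 4039 and 51, limma 131 and 32116 on log2(TPM + 1) and 119 and 31026 on log2(TPM + 0.1), edgeR without tumors 7 to 9 called 7562 and 7823, and with coding library sizes as well 3584 and 24995. Leaving out a library gave 0 to 0 higher and 0 to 3 lower. For tumors 7 to 9 (9 and 9 called), library totals gave 66 and 296, DESeq2 295 and 76, and leaving out a library 1 to 249 and 0 to 39, the highest being without control 3 (249 higher) and without control 1 (39 lower).

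Replicate numbers 1 to 3 occur in both groups. Same-numbered libraries correlated at 0.066, 0.084 and -0.094, within the range of differently numbered ones, -0.163 to 0.111. Whether same-numbered libraries are paired cannot be decided from these values, because they rest on 3 pairs whose libraries differed in composition. The replicate block over those 6 libraries called 8091 genes higher and 1827 lower, and the same libraries without the block 8717 and 3565; 5 members were called higher in either fit.

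Neat1 over all tumors had a log2 fold change of -0.505 with library totals, -0.063 with coding library sizes, -0.192 and -0.383 in limma and -0.046 without tumors 7 to 9 on coding sizes. Kcnq1ot1 had -1.256, -0.709, -1.854 (limma adjusted p = 0.0103), -2.125 (limma adjusted p = 0.014) and -1.363 in the same order. In tumors 7 to 9, library totals gave -0.459 for Gas5, -0.524 for Kcnq1ot1, -0.623 for Neat1 and -0.689 for Snhg1, and coding sizes -0.098 for Neat1 and -0.005 for Snhg1. Leaving out a library there gave -0.035 (without tumor 7) to 0.737 for Gas5, -0.183 (without tumor 7) to 0.446 for Snhg1, and -0.107 (without tumor 8) to 0.329 for Neat1, which was also negative without control 2 (-0.079) and control 3 (-0.05).

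For the difference in level, Neat1 had 1.262 on TMM-scaled CPM, 1.078 with the receptor background taken off, 0.25 with satellite-like models kept and -0.221 to 0.113 leaving out a library. Gas5 passed the exact permutation test at 3.987 on TMM-scaled CPM (p = 0.0273), 3.981 with the background off (p = 0.0364), 4.127 without tumors 7 to 9, and without tumor 8 or 9 (leave-outs 2.624 to 3.21). Snhg1 passed at 3.347 without tumors 7 to 9 and without tumor 8 or 9 (leave-outs 2.012 to 2.559), and Snhg12 at 2.662 without tumors 7 to 9. Kcnq1ot1 had 0.462 on TMM-scaled CPM, -1.576 with library totals (exact permutation p = 0.0318) and -1.433 without tumors 7 to 9. The intron-retaining share of Snhg1 differed by -0.3371 percentage points without tumors 7 to 9. On TMM-scaled CPM 0 pairs passed and the SD of log2 Snhg12 was 0.3535, and as shares of TPM Malat1-203 took 84.6% and Neat1-202 63.3%. The causes were not tested. In the controls and tumors 7 to 9, Gas5, Snhg1, Snhg12 and Neat1 stood at 1.07 to 3.05 times the receptor median, and levels below that background were not detectable there. The coding counts of those libraries were 2414305 to 3645566, beside 3008825 to 3643129 in tumors 1, 2 and 4. They include the background, so they are not a like measure of depth, and the part of depth in these levels was not tested.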

Other observations

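Over the 6 libraries with a high receptor background, the Malat1 level ran in the same order as the mitochondrial share of the library, a pattern noticed after the values were seen. Tumor 7 had a Malat1 level of 3196 and 11.1% mitochondrial counts, and tumor 8 had 2320 and 9.02%. Control 1 had 1538 and 6.73%, tumor 9 had 313 and 2.54%, control 2 had 75.81 and 0.181%, and control 3 had 60.29 and 0.0948%. Controls and tumors are mixed in this order. The part of the mitochondrial share in the Malat1 level was not tested. Gas5, Snhg1 and Snhg12 stood at 1.07 to 3.05 times the receptor median in the same libraries. By this density Gas5 was also highest in tumor 7, tumor 8 and control 1, at 3.05, 2.15 and 1.71 times. Snhg1 had 2.90, 2.41 and 2.03 times in those libraries. Both were lowest in tumor 9, which broke the order, and Snhg12 did not share it.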
